A study of Drosophila melanogaster with 40 samples.

Results

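The genes described here are 10 Drosophila genes of endoplasmic reticulum (ER) stress and protein folding, chosen by symbol and found at exactly 1 locus each among the 15863 loci of the 25°C table and the 15864 loci of the 28°C table. Of these, 5 are sensors and transcription factors of the unfolded protein response (Ire1, PEK, Atf6, Xbp1 and crc) and 5 are chaperones and folding enzymes of the ER (Hsc70-3, Gp93, Pdi, Calr and Cnx99A). Their RNA levels were followed in the S2 line, which was derived from Drosophila embryos, in 2 time courses under constant conditions. Each course had 20 libraries, taken at intervals of 3 h, the first at CT24 and the last at CT81 (circadian time in h). The cells of the 25°C course had lived for at least a week in daily cycles of 23°C and 28°C before release into constant 25°C, with fresh medium given at release, and polyA RNA was sequenced. The cells of the 28°C course had fewer days of such cycles and were then kept at 28°C, and RNA depleted of rRNA was sequenced. All libraries came from this line, and no drug or genetic change is named for any, so that no library is an untreated control for another. Temperature, RNA selection, depth and entrainment differed together between the courses and cannot be told apart, and neither can the hours since release and the age of the culture within a course. Whether both courses used 1 stock of S2 cells is not given in the sources used here, and the level of the marker Hml, given below, differed between them.

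Levels are in FPKM, fragments divided by transcript length and by the size of the library, and since no time point had a replicate library, errors rest on how far the 20 libraries of a course scatter around a fitted curve. Successive libraries of a course may not be independent, which the p-values below do not take into account. S2 cells resemble haemocytes, the blood cells of the fly, and carried most of their markers. Of 6 haemocyte markers, 4 were at 0.9 FPKM or more in every library at 25°C (srp, Pxn, crq and vkg), with summed levels of all 6 between 437.6 and 542.1 FPKM, while Hml reached at most 0.0667 FPKM and NimC1 at most 0.0593 FPKM. At 28°C Hml was also above this level in every library, with a lowest level of 1.69 FPKM and a median of 8.68 FPKM, and the 6 markers summed to between 278.6 and 505.7 FPKM. Of 4 markers of neurons, glia, muscle and germ line, elav reached 4.99 to 7.93 FPKM at 25°C and at most 15.1 FPKM at 28°C, while Mhc, vas and repo stayed under 1.09 FPKM in every library of both courses. The value of 1 read, estimated from rarely detected loci, was 0.0333 FPKM for a transcript of 1 kb at 25°C and 1.87 FPKM at 28°C. The typical distance of a locus from its own trend line was 0.0480 to 0.114 on the log2 scale over the libraries at 25°C, highest at CT60, and 0.241 to 0.574 at 28°C.

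The unfolded protein response adjusts the ER to its load of new proteins. Ire1, a kinase and RNase in the ER membrane, cuts the Xbp1 mRNA so that an active transcription factor is made from it. PEK, the fly PERK, phosphorylates the translation factor eIF2α, which lowers translation in general but favours that of crc, the fly ATF4. Atf6 is cut in the Golgi and enters the nucleus. Their targets include the chaperones that fold proteins in the ER lumen. FPKM per locus does not tell spliced from unspliced Xbp1 mRNA, and translation was not measured.

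At 25°C most of the sensors and transcription factors rose over the time course while most of the chaperones and folding enzymes fell. Ire1, PEK, Xbp1 and crc rose, 4 of 5 in their group, and Gp93, Pdi, Calr and Cnx99A fell, 4 of 5 in theirs. Trends were this frequent among all genes too. By the exact two-sided Kendall test, with adjustment over the 6933 loci at 0.9 FPKM or more in every library, 68.8% of these loci had a trend, 31.5% upward and 37.3% downward. The 8 members with a trend out of 10 are therefore close to the background, and their directions divided by role. The median fitted change over the 57 h, from a straight line on log2(FPKM + 1) by limma, was 0.48 for the sensors and transcription factors and −0.48 for the chaperones and folding enzymes, against −0.03 for all expressed loci.

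**Figure D1:**
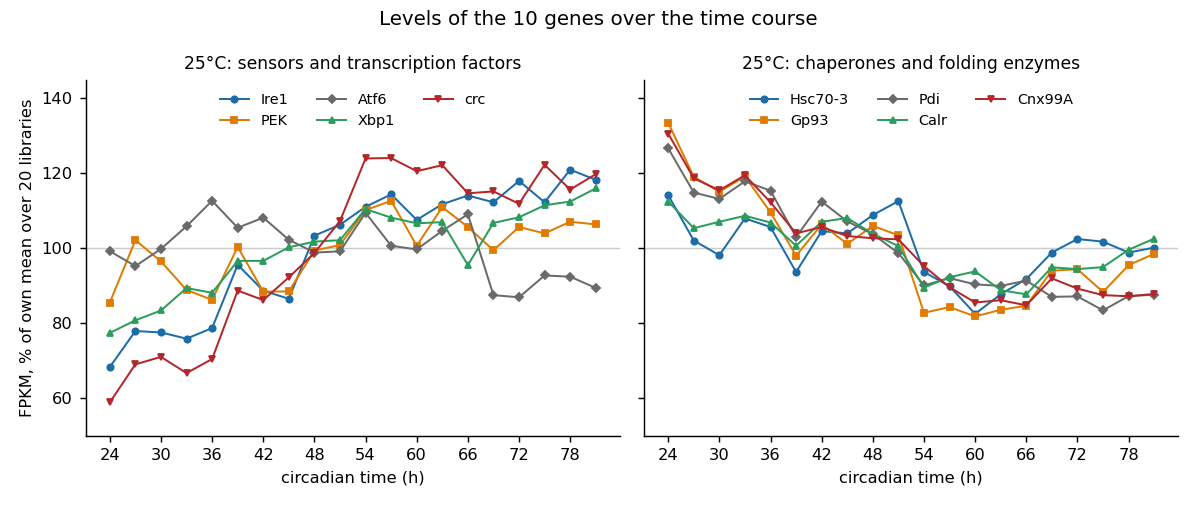
Level of each gene at 25°C in every library, in percent of the gene's own mean over 20 libraries, against circadian time in h; each point is 1 library. crc started at 58.9% of its mean, Ire1 at 68.3% and Xbp1 at 77.5%, while the 5 chaperones and folding enzymes started between 112% and 133% and dropped together between CT51 and CT54.

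Ire1 had its lowest level of 28.3 FPKM at CT24, a median of 44.3 FPKM and its highest level of 50.1 FPKM at CT78. Its 5 libraries from CT54 to CT66 averaged 46.3 ± 1.14 FPKM and those from CT24 to CT36 averaged 31.4 ± 1.76 FPKM (SD, n = 5 each), with no overlap. Its fitted change was 0.76 ± 0.07 (SE) on the log2 scale, and the level rose with time (Kendall tau 0.83, adjusted p = 2.43e-08). Most of this rise came before CT57, after which the level stayed between 44.6 and 50.1 FPKM. The locus (dm3 chromosome 3R, 15673033 to 15687013) overlaps MICU3, which averaged 13.8 FPKM, so that part of the reads could belong to either gene.

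PEK moved less. Its level was 22.0 FPKM at the lowest, at CT24, 25.9 FPKM at the median and 29.0 FPKM at the highest, at CT57. It changed by 0.26 ± 0.07 (SE; tau 0.48, adjusted p = 0.00434), and the libraries from CT54 to CT66 overlapped those from CT24 to CT36. Its locus lies on 3R, 1284285 to 1290475, with no overlapping locus.

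Atf6 was the only gene of its group without a rise. It had 28.1 FPKM at the lowest, at CT72, 32.2 FPKM at the median and 36.4 FPKM at the highest, at CT36. The fitted change of −0.18 ± 0.07 (SE) was not called by the Kendall test (tau −0.29, adjusted p = 0.0998), although limma's linear term called it (adjusted p = 0.0232). Its level varied between 30.8 and 36.4 FPKM up to CT66 and was lower from CT69 on. The 5 libraries from CT69 to CT81 lay between 28.1 and 30.0 FPKM and the 5 from CT54 to CT66 between 32.2 and 35.4 FPKM. The gene lies on 2R, 1032238 to 1042261.

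Xbp1, the target of Ire1 and itself a transcription factor for ER chaperone and secretory genes, was far more abundant than the sensors. It had its lowest level of 515.9 FPKM at CT24, a median of 679.6 FPKM and its highest level of 772.5 FPKM at CT81. The fitted change was 0.48 ± 0.06 (SE; tau 0.80, adjusted p = 1.31e-07). In the windows CT24 to CT36, CT39 to CT51, CT54 to CT66 and CT69 to CT81 it averaged 558.6 ± 33.3, 663.1 ± 18.1, 703.5 ± 38.8 and 739.4 ± 24.0 FPKM (SD, n = 5 each). The first window lay below all later ones without overlap, and the last overlapped the one before it. CT66, with 636.5 FPKM, was the lowest library after CT36. The gene lies on 2R, 17031050 to 17033255.

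crc, the transcription factor that acts downstream of PEK and of the amino acid sensor Gcn2, rose most of the 10 genes. It had its lowest level of 493.2 FPKM at CT24, a median of 917.7 FPKM and its highest level of 1039 FPKM at CT57. Over the course it changed by 1.02 ± 0.12 (SE; tau 0.64, adjusted p = 7.44e-05), higher than that of 95.9% of all expressed loci. It averaged 563.1 ± 41.5 FPKM from CT24 to CT36, 1014 ± 32.6 FPKM from CT54 to CT66 and 979.5 ± 34.2 FPKM from CT69 to CT81 (SD, n = 5 each). The later windows overlapped each other and lay above the first without overlap, so the rise was over by CT54. The gene lies on 2L, 21310866 to 21319527.

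Among the chaperones, Hsc70-3 is the fly BiP, the main Hsp70 of the ER lumen, and its level is often read as a sign of ER stress. It had 365.2 FPKM at the lowest, at CT60, 447.0 FPKM at the median and 505.3 FPKM at the highest, at CT24. It showed no called trend (change −0.15 ± 0.08, SE; tau −0.26, adjusted p = 0.146) but a transient dip. It averaged 467.4 ± 26.8 FPKM from CT24 to CT36, 394.5 ± 19.1 FPKM from CT54 to CT66 and 444.5 ± 7.29 FPKM from CT69 to CT81 (SD, n = 5 each), and the middle of these windows overlapped neither of the others. The gene lies on X, 11695729 to 11701150.

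Gp93, the ER Hsp90, fell more and ended farther below its start. It had 267.1 FPKM at the lowest, at CT60, 320.9 FPKM at the median and 435.5 FPKM at the highest, at CT24. The fitted change was −0.48 ± 0.10 (SE; tau −0.48, adjusted p = 0.00434). Its libraries lay between 357.8 and 435.5 FPKM from CT24 to CT36, between 267.1 and 276.5 FPKM from CT54 to CT66, below every earlier library, and between 288.5 and 321.7 FPKM from CT69 to CT81. The locus (3R, 23774433 to 23779834) overlaps CG4951, which averaged 47.9 FPKM.

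Pdi, a protein disulphide isomerase, fell without recovery. It had 730.6 FPKM at the lowest, at CT75, 834.9 FPKM at the median and 1109 FPKM at the highest, at CT24. Its change was −0.56 ± 0.05 (SE; tau −0.79, adjusted p = 2.23e-07). The antisense RNA asRNA:CR45396 overlaps the locus (3L, 15130838 to 15135940) and averaged 211 FPKM. Use of strand in the counting is not given in the sources used here, so reads of Pdi and of its antisense partner may not have been told apart.

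Calr and Cnx99A, the lectin chaperones calreticulin and calnexin that hold newly glycosylated proteins, both fell. Calr was the most abundant of the 10 genes, with 1308 FPKM at the lowest, at CT66, 1500 FPKM at the median and 1677 FPKM at the highest, at CT24. Its change was small at −0.23 ± 0.06 (SE; tau −0.44, adjusted p = 0.0101). Cnx99A had 183.8 FPKM at the lowest, at CT66, 214.2 FPKM at the median and 282.9 FPKM at the highest, at CT24. Its change was −0.57 ± 0.05 (SE; tau −0.77, adjusted p = 6.09e-07), below that of all but 12.0% of expressed loci. Calr partly returned, with all libraries from CT69 to CT81 above those from CT54 to CT66, and Cnx99A did not, since its last 2 windows overlapped. Calr lies on 3R, 5454413 to 5456573, and Cnx99A on 3R, 25140976 to 25145366.

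**Figure D2:**
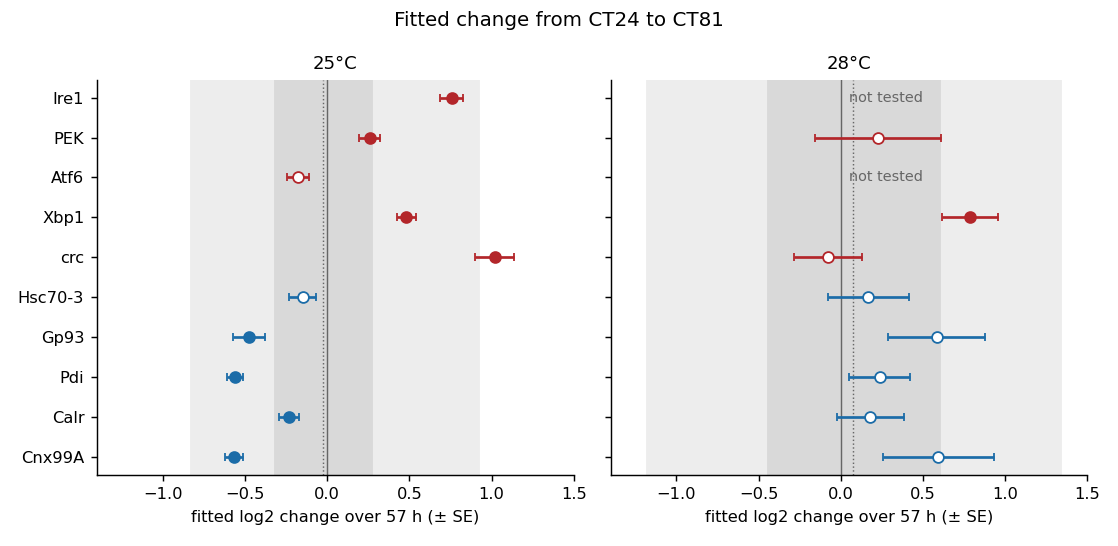
Fitted log2 change from CT24 to CT81 for each gene (points, bars ± SE of the limma fit; red, sensors and transcription factors; blue, chaperones and folding enzymes), filled where the Kendall trend was called. Bands hold the middle 50% and 90% of all expressed loci and the dotted line is their median. At 25°C 4 red points lie right of 0 and all 5 blue ones left of it, and at 28°C only Xbp1 is filled.

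Windows of 5 libraries give the extent of the divergence. From CT54 to CT66 all 5 chaperones and folding enzymes lay below their libraries of CT24 to CT36 without overlap, as did 21.8% of all expressed loci, and 3 of 5 sensors and transcription factors (Ire1, Xbp1 and crc) lay above, as did 17.9% of loci. From CT69 to CT81, Hsc70-3, Gp93 and Calr lay above their libraries of CT54 to CT66, as did 15.4% of loci, while Pdi and Atf6 lay below, as did 19.7% of loci. Those windows were chosen after the profiles had been seen and carry no test.

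The split came in several steps. At CT27 against CT24, and again at CT39 against CT36, all 5 chaperones and folding enzymes were lower and 4 of 5 sensors and transcription factors were higher. Of all expressed loci, 58.7% were lower at CT27 and 51.3% at CT39. At CT39 crc had 743.2 FPKM against 590.2 FPKM at CT36, and Ire1 had 39.6 FPKM against 32.6 FPKM, while Atf6 had 34.1 FPKM against 36.4 FPKM. Hsc70-3 had 414.6 FPKM at CT39 against 467.8 FPKM at CT36. At CT54 all 5 chaperones and folding enzymes were lower than at CT51 and all 5 sensors and transcription factors were higher, while 47.8% of all expressed loci were lower. Gp93 had 270.3 FPKM at CT54 against 337.9 FPKM at CT51, a drop steeper than that of all but 3.92% of loci. Hsc70-3 had 414.7 FPKM at CT54 against 498.1 FPKM at CT51, and crc had 1038 FPKM at CT54 against 898.5 FPKM at CT51. Over the 19 intervals, the 5 chaperones and folding enzymes were also all lower at CT36 than at CT33, as were 53.8% of loci. They were all higher at CT33 than at CT30, at CT42 than at CT39 and at CT81 than at CT78. Of all loci, 54.5%, 51.5% and 45.2% were lower in these intervals. The 5 sensors and transcription factors were all higher at CT51 than at CT48, with 4 of 5 chaperones and folding enzymes lower. They were all lower at CT60 than at CT57, with 4 of 5 chaperones and folding enzymes lower too. All 5 were higher at CT63 than at CT60, with 3 of 5 chaperones and folding enzymes higher too. In the intervals ending at CT51, CT60 and CT63, 51.5%, 49.2% and 53.7% of all loci were lower. Each such step rests on 2 libraries, and these steps were picked out after the values were seen.

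Curvature was tested apart from the trend, by limma's F test of the quadratic and cubic terms of time. It called 6 of the 10 members, against 19.9% of all expressed loci. Ire1, Xbp1 and crc rose faster early than late, with the lowest adjusted p for crc (0.00109). Xbp1 was still higher in each library from CT69 on than in the one before it, up to its highest level at CT81. Gp93, Calr and Cnx99A fell early and levelled off or turned upward, and Gp93 had the lowest adjusted p among them (0.00399). Hsc70-3 did not pass (adjusted p = 0.271), nor did PEK, Atf6 and Pdi. Without the library of CT24 the adjusted p of Ire1 was 0.0584, and the other 5 stayed below 0.05 without any single library.

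For rhythm, JTK-Cycle with periods of 21 to 27 h on linearly detrended profiles called only Hsc70-3, 1 of the 10 members, against 4.89% of all expressed loci. Its best reference had a period of 27 h and a peak 24 h after CT24 (adjusted p = 0.0233). Its profile was high at CT24, CT51 and CT72, with 505.3, 498.1 and 453.6 FPKM, and low at CT39 and CT60, with 414.6 and 365.2 FPKM. The call was lost without the library of CT24, CT48, CT60 or CT63, with adjusted p from 0.0584 to 0.124, and without detrending (adjusted p = 0.217). CT60 is the library farthest from the trend lines over all genes. JTK-Cycle was rewritten for this report and called fewer loci at both temperatures than the paper called transcripts.

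The order of the levels at 25°C was Calr, Pdi, crc, Xbp1, Hsc70-3, Gp93, Cnx99A, Ire1, Atf6 and PEK, compared as FPKM, which are scaled to transcript length. Calr exceeded Pdi and Xbp1 exceeded Hsc70-3 with no overlap over 20 libraries. Pdi and crc were not separable, since Pdi was higher in 9 of 20 libraries and crc in the rest: Pdi led in the early libraries and crc in the late ones. Hsc70-3 exceeded Gp93, and Gp93 exceeded Cnx99A, in all 20 libraries although their ranges over the course overlapped. The 3 membrane sensors formed the low end, with means from 25.7 to 41.4 FPKM.

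Ratios within a library do not depend on how the libraries were scaled. The ratio of Xbp1 to Hsc70-3 at 25°C was 1.02 at CT24, reached 1.95 at CT60 and was 1.74 at CT81. The ratio of crc to Gp93 was 1.13 at CT24, 3.84 at CT54 and 3.12 at CT81. Both ratios had already grown by CT36, when that of Xbp1 was 1.25 and that of crc 1.65. The crc ratio of every library from CT51 on was above that of every library before it. The 5 chaperones and folding enzymes together held 0.406% of all FPKM at CT24, 0.259% at CT60 and 0.292% at CT81. Their own sum was 4010, 3008 and 3252 FPKM in these libraries. The sum over all loci was 9.87e+05 FPKM at CT24, 1.16e+06 at CT60, its highest, and 1.11e+06 at CT81.

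**Figure D3:**
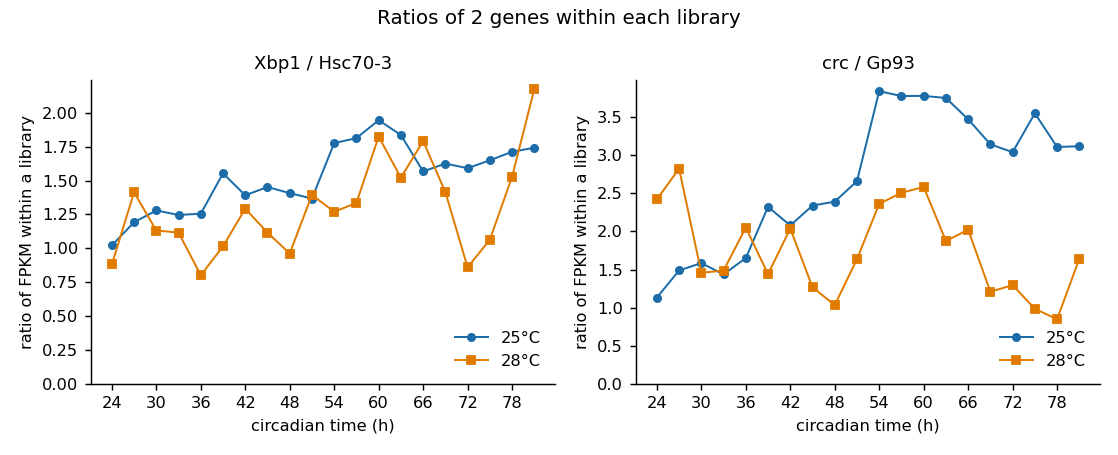
Ratio of FPKM within each library for Xbp1 over Hsc70-3 (left) and crc over Gp93 (right) against circadian time in h, with 25°C in blue circles and 28°C in orange squares; each point is 1 library. At 25°C the crc ratio climbed to 3.84 at CT54, and at 28°C it ended at 1.64 after a start at 2.42.

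After removal of the straight line, the chaperones and folding enzymes had like profiles at 25°C, and the sensors and transcription factors less so. The Spearman correlation of detrended profiles over 20 libraries was between 0.66 and 0.93 in all 10 pairs of chaperones and folding enzymes, with the closest pair Gp93 and Cnx99A (rho 0.93, Pearson r 0.94). It was between −0.82 and −0.10 in the 25 pairs across the groups, and for crc and Gp93 it was −0.82 (r −0.84). Pairs of sensors and transcription factors lay between 0.08 (PEK and Atf6) and 0.79 (Ire1 and PEK, r 0.75), with a median of 0.44. All points of a pair share their libraries and their order in time, so no p-value is given. The curvature called in 6 of the 10 members was not removed with the straight line and enters these correlations.

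Among all 6932 other expressed loci at 25°C, the profile most like that of Hsc70-3 was that of Rel, the NF-κB factor Relish (rho 0.93, r 0.92). Tig, an integrin ligand of the extracellular matrix, followed with rho 0.91, and LIMK1, a kinase of the actin cytoskeleton, CG12316 and Hrd3, a subunit of the ER ubiquitin ligase complex, each had 0.89. The members closest to Hsc70-3 were Cnx99A (rank 146, rho 0.77) and Gp93 (rank 161, rho 0.77), and then Calr at rank 518 and Pdi at rank 550. The loci most like Xbp1 were CG33228 (rho 0.92), CG12112 (0.89), CG12171 (0.85), the joint locus of CG1896 and Tbca (0.84) and CG1943 (0.84). crc stood at rank 159 for Xbp1 (rho 0.64) and Ire1 at rank 683 (rho 0.41), whereas Gp93 stood at rank 6301 (rho −0.53).

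**Figure D4:**
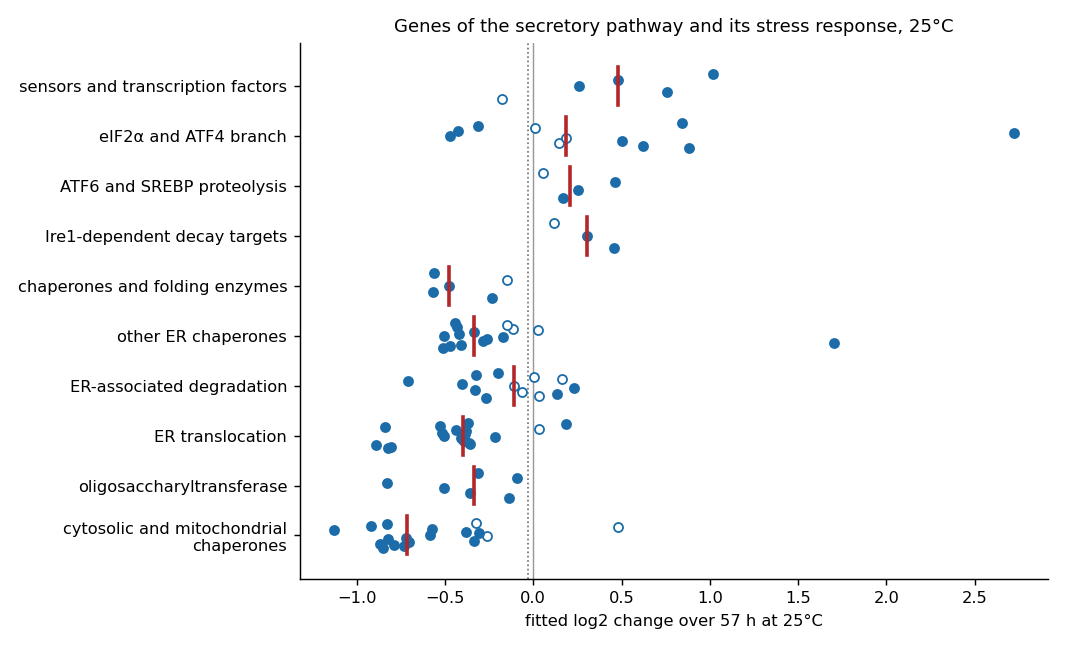
Fitted log2 change over 57 h at 25°C for every expressed gene of 10 lists (points, filled where the Kendall trend was called), with the list median in red and the median of all expressed loci dotted. Most chaperones, translocation and oligosaccharyltransferase genes lie left of 0, and Thor at 2.73 and Ero1L at 1.70 lie farthest right.

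Other genes of the secretory pathway at 25°C were followed list by list. Of 15 other ER chaperones and folding enzymes tested, 11 fell and 1 rose, with a median log2 change of −0.34, where 37.3% of all expressed loci fell and 31.5% rose. Those that fell included ERp44 (−0.47 ± 0.04, SE), which retains secretory clients, the disulphide isomerase CaBP1 (−0.51 ± 0.05) and Grp170 (−0.51 ± 0.06), an exchange factor for the ER Hsp70. The one that rose was Ero1L, the oxidase that supplies disulphide bonds through protein disulphide isomerase. Its level was 27.0 FPKM at CT24, its lowest, 43.3 FPKM at the median and 107 FPKM at CT81, its highest, with a fitted change of 1.70 ± 0.18 (SE), above 98.8% of all expressed loci.

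The translocation machinery, which threads new proteins into the ER, fell in 17 of 19 genes and rose in 1, with a median change of −0.40. The background for this list and the next 2 was again 37.3% of expressed loci falling and 31.5% rising. Sec61alpha, the channel itself, had a highest level of 566.8 FPKM at CT24 and a lowest level of 321.9 FPKM at CT75 (change −0.82 ± 0.04, SE). SsRbeta changed by −0.84 ± 0.06, and the signal recognition particle subunits Srp72 and Srp68 by −0.52 ± 0.04 and −0.38 ± 0.03 (SE). All 6 tested subunits of the oligosaccharyltransferase, which attaches N-glycans, fell (median −0.34), 4 of them after the libraries were rescaled by median of ratios, and Ostgamma had the largest change of its list, −0.83 ± 0.04 (SE). ER-associated degradation was nearer to the background, with 6 of 13 genes falling, 2 rising and 5 not called (median −0.11). There TER94, the ATPase that pulls proteins out of the membrane, fell (−0.71 ± 0.04), as did its cofactor Npl4 (−0.41 ± 0.04) and Faf2 (−0.33 ± 0.05), while Herp rose (0.23 ± 0.04, SE).

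The fall was not limited to the ER. Of 18 cytosolic and mitochondrial chaperones tested, 15 fell and none rose, where 37.3% of all expressed loci fell and 31.5% rose. Their median of −0.71 was farther from 0 than the −0.48 of the 5 ER members. Hsp110 changed by −1.13 ± 0.05, and the chaperonin subunits CCT1, CCT2 and CCT8 by −0.85 ± 0.04, −0.73 ± 0.03 and −0.72 ± 0.04 (SE). The lists were not tested against each other.

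On the side of crc, the list of eIF2α phosphorylation and ATF4 genes had called trends in both directions, as did all expressed loci. Of 11 genes tested 5 rose and 3 fell (median 0.18), where 31.5% of all expressed loci rose and 37.3% fell. After rescaling of the libraries 6 rose, as did 2390 of the 6933 expressed loci. Thor, the translation repressor 4E-BP and a known crc target, had 301.6 FPKM at CT24, its lowest, 2344 FPKM at the median and 3505 FPKM at CT78, its highest. Its fitted change of 2.73 ± 0.29 (SE; adjusted p = 7.68e-08) was above that of 99.7% of all expressed loci and, like crc, its course was curved (adjusted p = 0.000339). PPP1R15, the subunit that directs dephosphorylation of eIF2α, rose (0.50 ± 0.06), while eIF2alpha itself (−0.43 ± 0.04) and the serine hydroxymethyltransferase gene Shmt (−0.47 ± 0.06, SE) fell.

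The list of Atf6 and SREBP proteolysis had 3 of 4 genes rising (median 0.21): the escort SCAP (0.46 ± 0.05) and the proteases S2P (0.25 ± 0.04) and S1P (0.17 ± 0.06, SE). Their substrate SREBP had a change of 0.06 ± 0.06 (SE), with no called trend, like Atf6. Of 3 mRNAs known to be cut by Ire1 in S2 cells, 2 rose, Hydr2 (0.46 ± 0.08) and SPARC (0.31 ± 0.08, SE). A rise was called for 31.5% of all expressed loci, and lists of 4 and 3 genes are too short to set against that share. Hydr2 had 79.8 FPKM at the lowest, at CT24, 102.8 FPKM at the median and 120 FPKM at the highest, at CT69. SPARC had 2399 FPKM at the lowest, at CT27, 2783 FPKM at the median and 3580 FPKM at the highest, at CT60.

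At 28°C the same genes were measured with far less precision. The loci at 0.9 FPKM or more in every library numbered 2035, and 8 of the 10 members were among them. Ire1 and Atf6 were not, because each was listed at 0 in 1 library, Ire1 at CT27 and Atf6 at CT30. One read is worth 0.463 FPKM for Ire1 and 0.608 FPKM for Atf6 at this depth. At CT27 4140 loci reached 0.9 FPKM and at CT30 5115 did, against 6921 at CT75, the most of this course. Why these 2 values were 0 was not tested. Ire1 otherwise ranged up to 49.98 FPKM at CT69 with a median of 20.1 FPKM, and Atf6 up to 18.4 FPKM at CT27 with a median of 5.81 FPKM.

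Xbp1 was the only member with a called trend at 28°C, 1 of 8, against 7.96% of loci with a trend, 5.5% upward and 2.46% downward. It had 216.6 FPKM at the lowest, at CT36, 338.1 FPKM at the median and 470.9 FPKM at the highest, at CT81. In the 4 successive windows it averaged 266.5 ± 44.0, 341.5 ± 33.0, 353.7 ± 37.3 and 423.3 ± 39.0 FPKM (SD, n = 5 each), and the last window did not overlap the first. The fitted change was 0.78 ± 0.17 (SE; tau 0.66, adjusted p = 0.000814), and the adjusted p stayed between 0.000436 and 0.00424 without any single library. Xbp1 thus rose with time in both courses.

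**Figure D5:**
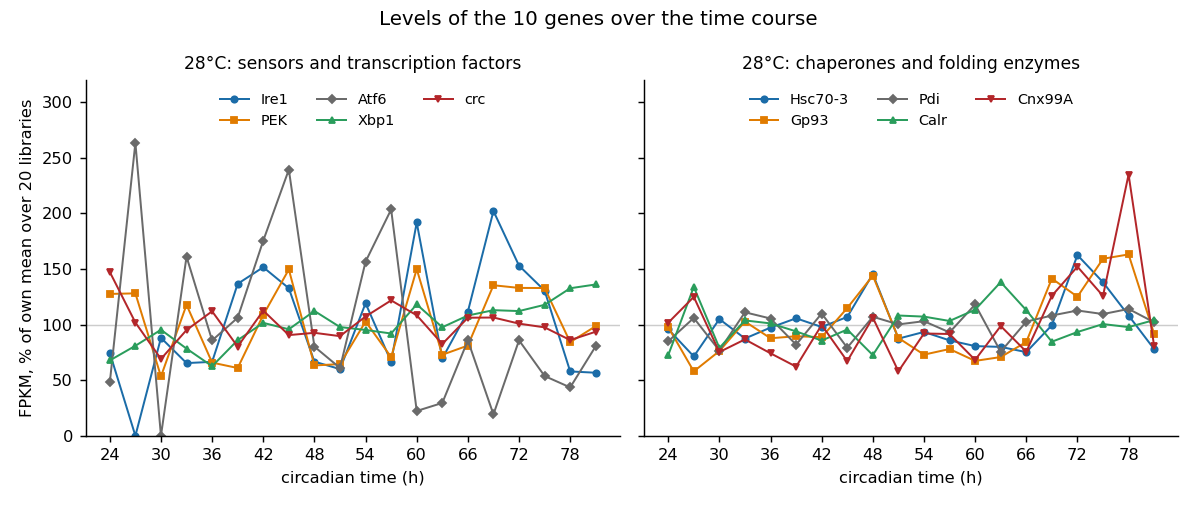
Level of each gene at 28°C in every library, in percent of the gene's own mean over 20 libraries, against circadian time in h; each point is 1 library. The vertical axis spans a wider range than that for 25°C. Atf6 and Ire1 jump between 0 and over 200% of their means, while Xbp1 stood at 136% of its mean at CT81, against 67.7% at CT24.

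crc did not follow Xbp1 at 28°C. It had 200.4 FPKM at the lowest, at CT30, 287.5 FPKM at the median and 427.0 FPKM at the highest, at CT24. The fitted change was −0.08 ± 0.21 (SE; tau −0.11, adjusted p = 0.786). PEK, with 11.5 to 32.3 FPKM, had a change of 0.23 ± 0.38 (SE), an error wider than its whole change at 25°C.

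No chaperone or folding enzyme had a called trend at 28°C, and the fitted changes were all above 0, with a median of 0.07 for all expressed loci. Together the 5 genes held 0.1605% of all FPKM at CT24 and 0.1449% at CT81, and between 0.119% and 0.275% over the course. Gp93 had 104.6 FPKM at the lowest, at CT27, 160.9 FPKM at the median and 294.4 FPKM at the highest, at CT78, with a change of 0.58 ± 0.29 (SE; adjusted p = 0.456). Cnx99A had 66.9 FPKM at the lowest, at CT51, 105.8 FPKM at the median and a single high library of 270.9 FPKM at CT78 (change 0.59 ± 0.34, SE). The changes of Hsc70-3 (0.17 ± 0.25), Pdi (0.24 ± 0.19) and Calr (0.18 ± 0.20, SE) were all within 2 standard errors of 0. The SE of these 5 genes at 28°C was 0.19 to 0.34, against 0.05 to 0.10 at 25°C, so a decline as small as that of Calr at 25°C, −0.23, was little more than 1 SE of Calr at 28°C. The declines of Gp93, Pdi and Cnx99A at 25°C were larger, at −0.48, −0.56 and −0.57. Their SE at 28°C were 0.29, 0.19 and 0.34, around changes above 0. Whether the courses of a gene differ between the temperatures was not tested.

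No member was called curved at 28°C by limma, where the test called 0% of loci. At an unadjusted p under 0.05 it gave 176 of the 2035 loci and none of the members, and a natural spline in place of the polynomial gave 3 loci. No member was rhythmic by JTK-Cycle, against 3.73% of loci. Gp93 had an adjusted p of 0.102 at a period of 27 h, and it fell below 0.05 without the library of CT33 or of CT36 (0.0255 at the lowest) and without detrending (0.0392). By cosinor regression its p was 0.0456.

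The pairs of members were also spread more widely at 28°C, where the scatter of single libraries was larger. Over 10 pairs of chaperones and folding enzymes, rho of the detrended profiles lay between −0.74 and 0.74 with a median of 0.13, against a median of 0.71 at 25°C. Hsc70-3 and Gp93 kept a high likeness (rho 0.74, r 0.70), and Gp93 ranked 17 of 2034 other loci for Hsc70-3. Calr ran opposite to Hsc70-3 (rho −0.74, r −0.61), at rank 2024. The order of levels also differed: Calr remained highest, followed by Xbp1, crc, Hsc70-3 and Pdi, and Hsc70-3 was above Pdi in 8 of 20 libraries. At 28°C asRNA:CR45396, which overlaps Pdi, averaged 197.9 FPKM, against 267.9 FPKM for Pdi. Reads of the 2 may not have been told apart, which limits both the level and the course of Pdi. The ratio of Xbp1 to Hsc70-3 was 0.88 at CT24 and 2.18 at CT81, its highest, with returns to 0.96 at CT48 and 0.86 at CT72.

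The wider lists had almost no called trends at 28°C, where 7.96% of all expressed loci had one. In lists this short, few or no calls are near that share. None of the 13 other ER chaperones, 7 genes of ER-associated degradation, 12 of translocation, 5 of the oligosaccharyltransferase or 7 of the eIF2α and ATF4 branch passed. The exceptions were SPARC, with 301.8 FPKM at the lowest, 655.2 FPKM at the median and 1274 FPKM at the highest (change 1.29 ± 0.30, SE; adjusted p = 0.00731), and Hsc70-4, the main cytosolic Hsp70, with a change of 0.91 ± 0.20 (SE; adjusted p = 0.00576). Thor, with 146.6 to 540.4 FPKM, had a change of 0.44 ± 0.39 (SE; adjusted p = 0.503). SPARC stood at its highest at CT48, the library in which the 10 most abundant loci held 52.9% of all FPKM. Hsc70-4 was named here after its value was seen.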

How the data were processed

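RNA-seq libraries of 40 samples, 20 at 25°C and 20 at 28°C, were grouped by temperature and ordered by the time in the sample labels. The authors aligned single-end reads to dm3 with TopHat, built loci on RefSeq genes with Cufflinks and Cuffmerge and scaled them with Cuffnorm. Their deposited values are FPKM, with 1 table per course. At 28°C the authors subsampled the alignments first. Length and library scaling are therefore in the values, the number of reads is not, and no counting error could be given. The depth was judged from the FPKM worth 1 read at rarely detected loci. Deposited coordinates start at 0 and are printed from 1. Symbols came from RefSeq accessions, matched for 98.3% of loci. The labels and the methods name different kits for the 25°C libraries.

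A locus was tested where none of its 20 values in a course was under 0.9 FPKM, and each course was tested apart. Trends were tested with an exact two-sided Kendall test with Benjamini-Hochberg adjustment over all these loci, fitted changes and curvature with limma 3.58.1 (R 4.3.3) on log2(FPKM + 1), and rhythm with JTK-Cycle rewritten in Python 3.11.15 (numpy 2.4.6, scipy 1.17.1), with 24 references of 21, 24 and 27 h after linear detrending and a Bonferroni adjustment over the references. Calls were made at 0.05. The rewritten JTK-Cycle took its p-values from a null without ties, although its references repeat values. All tests were tested on simulated profiles with independent noise, which cannot check the effect of dependence between successive libraries. Likeness was the Spearman correlation of linearly detrended profiles. The alternatives were other filters, rescaling by median of ratios, a pseudocount of 0.1, other detrending, a spline, a cosinor regression and each library left out.

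The 10 genes and the 8 other lists were chosen with earlier results of these data known. All 10 genes are named. Of each other list at most 4 genes with the smallest adjusted p of the 25°C trend are named, and for likeness the 5 loci closest to Hsc70-3 and to Xbp1. No sequences were used here.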

Additional observations from a re-analysis of the deposited data

How the results depend on the processing

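The number of members with a trend was 8 at 25°C and 1 at 28°C and kept within 1.5 times of these under each alternative filter, rescaling and limma's linear term, and between 8 and 9 at 25°C and 1 and 1 at 28°C without any single library. The number with a curved course at 25°C was 6 under each alternative and 5 to 7 without any single library, and 0 at 28°C throughout. The number called rhythmic was less stable. At 25°C it was 1, 0 without detrending, 2 by cosinor regression (Hsc70-3 and Atf6) and 0 to 2 without any single library. At 28°C it was 0, 1 without detrending, 1 by cosinor regression (Gp93 both times) and 0 to 1 without any single library. Over all expressed loci, the rhythm calls at 25°C numbered 339, against 114 without detrending, 882 by cosinor regression at an unadjusted p under 0.05, and 207 to 580 without any single library. At 28°C they numbered 76, against 137 with a filter on the mean, 139 with no filter and 216 by cosinor regression. Trends at 28°C numbered 162, against 105 and 96 with those filters, and curved courses 0, against 2 with either filter, 3 with a spline and at most 6 without a library (CT81). No paired analysis was possible because no time point had a replicate number. Among the adjusted p-values of single members, 1388 kept their side of the threshold under an alternative, 10 passed it newly and 6 lost it, and none with a call changed direction; the cause was not tested. For PEK, 1 read was worth 0.438 FPKM at 28°C and 0.00782 FPKM at 25°C. The part of depth in the larger scatter at 28°C was not tested.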
